A study of Homo sapiens with 16 samples.

Results

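The distal long arm of chromosome 20 was examined for TOP2B occupancy in the lung adenocarcinoma cell line PC9, an established human line driven by mutant EGFR. Its members were the peak intervals of chromosome 20 whose midpoint lay at or above 40000000 on GRCh37. They numbered 1242 of 7493 intervals in METTL7A knockout cells treated with osimertinib (treated knockout), 1974 of 12493 in untreated METTL7A knockout cells, 330 of 9655 in wild-type cells treated with osimertinib (treated wild type) and 1963 of 15281 in untreated wild-type cells. Over the 4 lists they made up 5509 of 44922 intervals. Osimertinib, an inhibitor of mutant EGFR, was given for 6 to 8 weeks at doses escalated from 100 nM. TOP2B was mapped by CUT&RUN, in which an antibody guides a nuclease to cut DNA beside its target, and the peaks of 2 replicate libraries per condition were intersected by the authors into 1 list. The labels do not say how the knockout was made, whether it is a single clone or whether replicates were separate cultures, and the genotype could not be checked in the lists.

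TOP2B is the beta form of DNA topoisomerase II. It passes one DNA duplex through a transient double-strand break in another, which relieves torsion and entanglement during transcription and at the bases of chromatin loops, and a break that is not resealed can start a rearrangement. METTL7A belongs to the methyltransferase-like protein family. The distal long arm of chromosome 20 is often gained in epithelial tumours and carries known cancer genes such as AURKA, a mitotic kinase, and ZNF217, a transcriptional regulator. Positions below are on GRCh37, counted from 1, for which no gene annotation or sequence was used here, so no interval is tied to a gene. Copy number of the region was not measured in the lists.

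Each condition had 1 list, so there is no replicate spread to judge a difference by, and no test was made between conditions. The 95% intervals given are exact binomial intervals for shares and exact conditional intervals for ratios, and they cover counting error only. The region was selected on the number of intervals it holds in these lists and on how its share differs between them, so its counts, shares and ratios are descriptions. Library depth cannot be read from the lists; the protocols planned 20000000 read pairs for each. Within a list the peak maxima are whole multiples of 1 step of coverage, and the lowest maximum that entered was 0.152 in treated knockout (4 steps) and 0.145 in untreated knockout (2 steps), against 0.267 in treated wild type and 0.196 in untreated wild type (5 steps each). How the coverage of each list was scaled is not stated in the labels.

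Distal chromosome 20 held a large share of the intervals in every condition except treated wild type. Its share was 16.6% in treated knockout (95% interval 15.7 to 17.4) and 15.8% in untreated knockout (15.2 to 16.5), against 3.42% in treated wild type (3.06 to 3.8) and 12.8% in untreated wild type (12.3 to 13.4). The untreated lists held almost equal numbers, at 86.2 intervals per Mb in the knockout and 85.7 in wild type. Density was 54.2 intervals per Mb in treated knockout and 14.4 in treated wild type. The bases covered differed more, as widths also differed, with 6.98% of the region covered in treated knockout and 17.1% in untreated knockout, against 1.71% in treated wild type and 33.5% in untreated wild type. The first interval began at 40994701 in treated knockout and 40020501 in untreated knockout, against 40036851 in treated wild type and 40002601 in untreated wild type, and the last ended between 62864250 and 62912150.

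The intervals were unevenly spread along the region, and each of the 4 lists had a trough at 51 to 55 Mb between denser stretches. From 40 to 42 Mb they were sparse, with 1 interval in treated knockout and 13 in untreated knockout, against 12 in treated wild type and 46 in untreated wild type. A first dense stretch from 42 to 51 Mb held 468, 794, 112 and 872 intervals in the same order of lists. The trough held 47 intervals in treated knockout and 166 in untreated knockout, against 3 in treated wild type and 189 in untreated wild type. The stretch from 55 to 60 Mb held 355, 560, 69 and 520, and the terminal 60 to 63 Mb held 371, 441, 134 and 336. These limits were set after the window counts had been seen.

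**Figure D1:**
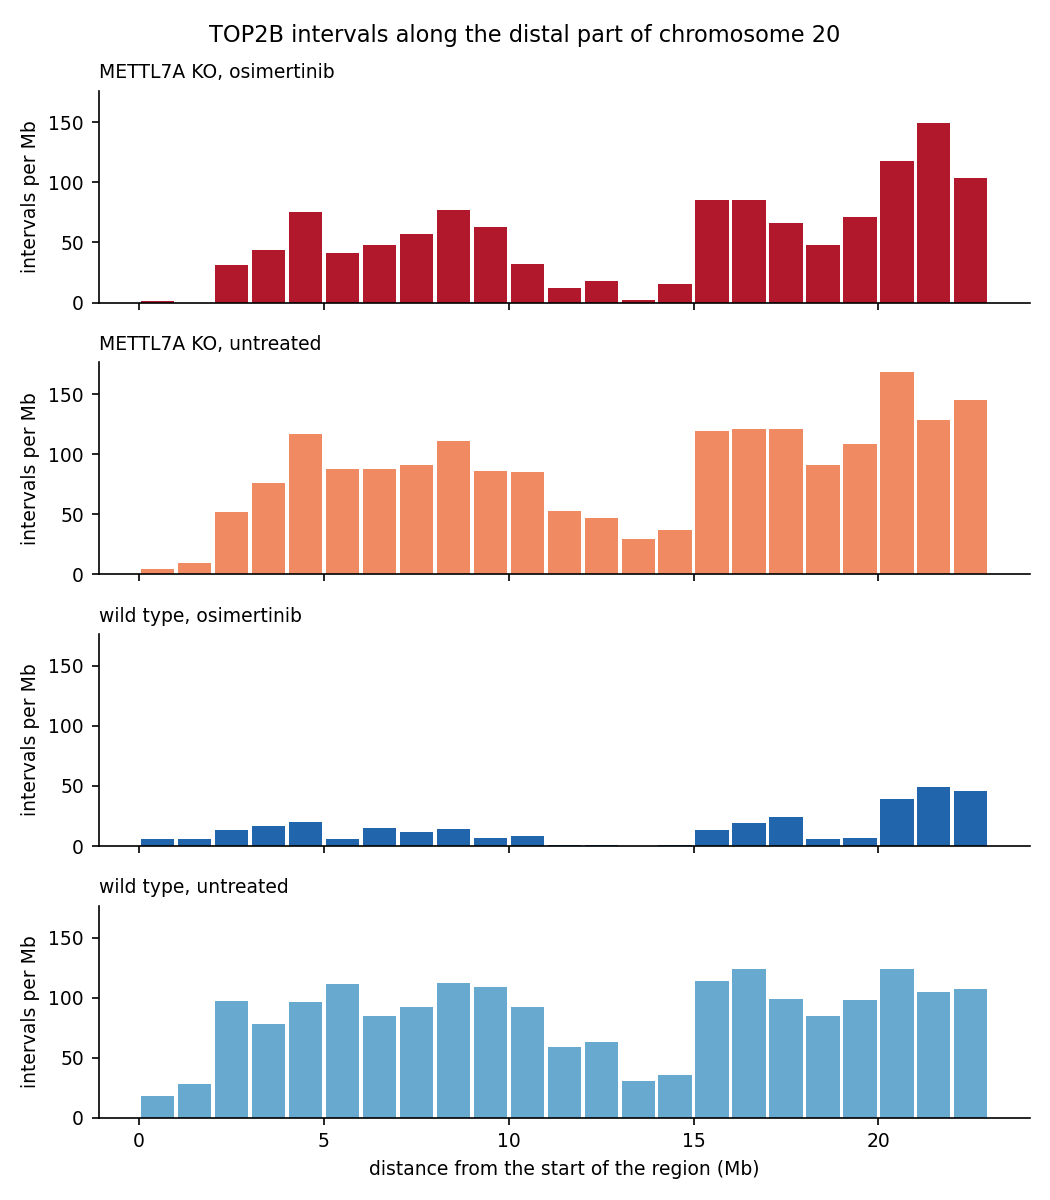
TOP2B intervals in each 1 Mb window of chromosome 20 from 40 Mb to the end, by list; the x axis is the distance from 40 Mb in Mb and each bar is the number of interval midpoints in the window. The trough 11 to 15 Mb from the start held 47 intervals in treated knockout and 166 in untreated knockout, against 3 in treated wild type and 189 in untreated wild type.

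By number of intervals, the densest windows were near the telomere in 3 of the 4 lists. In treated knockout they were 61 to 62 Mb with 149 intervals, 60 to 61 Mb with 118 and 62 to 63 Mb with 104. Untreated knockout had 168 intervals at 60 to 61 Mb, 145 at 62 to 63 Mb and 128 at 61 to 62 Mb. In treated wild type the same windows led, with 49 at 61 to 62 Mb, 46 at 62 to 63 Mb and 39 at 60 to 61 Mb. Untreated wild type was flatter by number, with 124 intervals at both 56 to 57 Mb and 60 to 61 Mb and 114 at 55 to 56 Mb. By bases covered, the same terminal windows led in untreated wild type too. They held 630.5 kb at 60 to 61 Mb, 616.9 kb at 61 to 62 Mb and 551.8 kb at 62 to 63 Mb. The next was 536.25 kb at 56 to 57 Mb. Across the 23 windows, interval counts of treated and untreated knockout correlated with Spearman's rho 0.961 (Pearson's r 0.914) and those of treated and untreated wild type with rho 0.637 (r 0.548). The treated lists gave rho 0.82 (r 0.857) and the untreated lists rho 0.826 (r 0.893). These coefficients describe neighbouring windows of single lists that share the gene and base content of the region.

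At the 40 Mb limit the lists were sparse on both sides. The window at 39 to 40 Mb held 3 intervals in treated knockout and 10 in untreated knockout, against 7 in treated wild type and 35 in untreated wild type, and that at 40 to 41 Mb held 1, 4, 6 and 18. Untreated wild type had one called peak across the limit, of which a piece at 39989051 to 39994650 lay outside and a piece at 40002601 to 40004550 inside, both with a maximum of 15 steps. Untreated knockout had its nearest intervals at 39989051 to 39990650 (5 steps) and 40020501 to 40022150 (4 steps), and treated wild type had them at 39976651 to 39977750 (10 steps) and 40036851 to 40038250 (11 steps). In treated knockout they were at 39968601 to 39969200 (7 steps) and 40994701 to 40995700 (4 steps). In the lists other than treated wild type, a step from sparse to dense lay 2 Mb further on, between 41 to 42 Mb and 42 to 43 Mb. The counts there were 0 and 31 in treated knockout, 9 and 52 in untreated knockout, and 28 and 97 in untreated wild type. Treated wild type had 6 and 13 in these windows, but 17 at 36 to 37 Mb and 12 at 37 to 38 Mb, so it showed no such step.

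Under osimertinib the knockout had the larger share in each stretch of the region from 42 Mb on, and the smaller one at 40 to 42 Mb. The ratio of list shares, treated knockout over treated wild type, was 4.85 (4.29 to 5.49), on 1242 and 330 intervals. Of the 23 windows, 17 held at least 20 intervals in either list, and all 17 exceeded 2-fold in favour of the knockout. Of all windows of the genome examined in this comparison, 33% exceeded 2-fold in that direction and 49.5% in the other. The ratio was highest at 59 to 60 Mb, with 71 intervals in treated knockout and 7 in treated wild type (13.1, 6.02 to 33.7), at 49 to 50 Mb with 63 and 7 (11.6, 5.31 to 30) and at 58 to 59 Mb with 48 and 6 (10.3, 4.41 to 29.5). It was lowest at 62 to 63 Mb with 104 and 46 (2.91, 2.04 to 4.22), at 42 to 43 Mb with 31 and 13 (3.07, 1.56 to 6.4) and at 43 to 44 Mb with 44 and 17 (3.34, 1.87 to 6.23). The trough windows were too sparse to be examined singly, and together gave 47 intervals in treated knockout and 3 in treated wild type (20.2, 6.5 to 101). The other sparse windows, at 40 to 42 Mb, went the opposite way, with 1 interval in treated knockout and 12 in treated wild type (0.107, 0.00251 to 0.726). Elsewhere on chromosome 20 the genotypes differed less: the ratio was 2.33 (1.83 to 2.97) for the first 30 Mb, and at 30 to 40 Mb it was 0.546 (0.389 to 0.759), the opposite direction.

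Without drug the genotypes had similar counts of intervals along the region. The ratio of shares of untreated knockout over untreated wild type was 1.23 (1.15 to 1.31), on 1974 and 1963 intervals. Of 22 windows examined, 0 exceeded 2-fold in favour of the knockout and 1 in favour of wild type, against 1.3% and 13.4% of all windows examined. With each called peak counted as 1, 7 windows exceeded 2-fold in favour of the knockout and 1 in favour of wild type. The share over all windows is not available for called peaks, so whether 7 is particular to the region cannot be told. By intervals, the lower window was 41 to 42 Mb, with 9 in the knockout and 28 in wild type (0.393, 0.163 to 0.857). The next lowest were 42 to 43 Mb with 52 and 97 (0.656, 0.459 to 0.928) and 52 to 53 Mb with 47 and 63 (0.913, 0.612 to 1.35). The highest ratios were at 62 to 63 Mb with 145 and 107 (1.66, 1.28 to 2.15), at 60 to 61 Mb with 168 and 124 (1.66, 1.31 to 2.11) and at 57 to 58 Mb with 121 and 99 (1.49, 1.14 to 1.97). The neighbouring 30 to 40 Mb had 135 and 389 intervals and a ratio of 0.424 (0.346 to 0.518), opposite in direction to the region as a whole. The direction did not change at the 40 Mb limit. Inside the region, 40 to 42 Mb had 13 and 46 intervals and a ratio of 0.346 (0.171 to 0.651). The small excess on distal chromosome 20 depended on what was counted: it was 1.71 when each called peak counted as 1, and with intervals restricted to called peaks at or above the median maximum of their list the ratio was 0.885, the opposite direction.

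In wild type, the share of distal chromosome 20 was lower under osimertinib, and least so at the chromosome end. The ratio of treated over untreated wild type was 0.266 (0.236 to 0.299), on 330 and 1963 intervals. Of 22 windows examined, 19 were lower under osimertinib by 2-fold or more and 0 were higher by as much, against 37.5% and 29.6% of all windows examined. The lowest ratios fell in the trough. At 53 to 54 Mb treated wild type had 0 intervals and untreated wild type 31 (upper bound of the ratio 0.2). The other window that was empty in one list and held 20 or more intervals in another was 41 to 42 Mb, with 0 in treated knockout and 28 in untreated wild type. At 52 to 53 Mb the counts were 1 in treated and 63 in untreated wild type (0.0251, 0.000626 to 0.145), and at 51 to 52 Mb they were 1 and 59 (0.0268, 0.000668 to 0.155). The 3 windows that stayed within 2-fold were the terminal ones: 61 to 62 Mb with 49 and 105 intervals (0.739, 0.515 to 1.05), 62 to 63 Mb with 46 and 107 (0.68, 0.471 to 0.97) and 60 to 61 Mb with 39 and 124 (0.498, 0.338 to 0.719, and 0.502 with 0.5 intervals added to each count, on which windows were judged). The ratio for 30 to 40 Mb was 0.509 (0.412 to 0.624) and that for the first 30 Mb 0.548 (0.436 to 0.684). By called peaks the ratio for distal chromosome 20 was 0.412, and among called peaks at or above the list median it was 0.125.

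In the knockout, treated and untreated cells devoted similar shares of their lists to the region. The ratio of treated over untreated knockout was 1.05 (0.976 to 1.13), on 1242 and 1974 intervals, and by number there were 0.629 times as many under osimertinib. Of 21 windows examined, 0 were higher under osimertinib by 2-fold or more and 2 were lower by as much, against 3.16% and 10.1% of all windows examined. Both were in the trough: 53 to 54 Mb had 2 intervals in treated and 29 in untreated knockout (0.115, 0.0133 to 0.455), and 51 to 52 Mb had 12 and 53 (0.378, 0.184 to 0.716). The next lowest was 50 to 51 Mb with 32 and 85 (0.628, 0.404 to 0.953). The highest was 61 to 62 Mb, where the number of intervals was larger under osimertinib, at 149 and 128 (1.94, 1.52 to 2.48), followed by 49 to 50 Mb with 63 and 86 (1.22, 0.868 to 1.71) and 62 to 63 Mb with 104 and 145 (1.2, 0.921 to 1.55). The neighbouring 30 to 40 Mb gave 0.655 (0.467 to 0.906) and the first 30 Mb 0.772 (0.648 to 0.917).

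**Figure D2:**
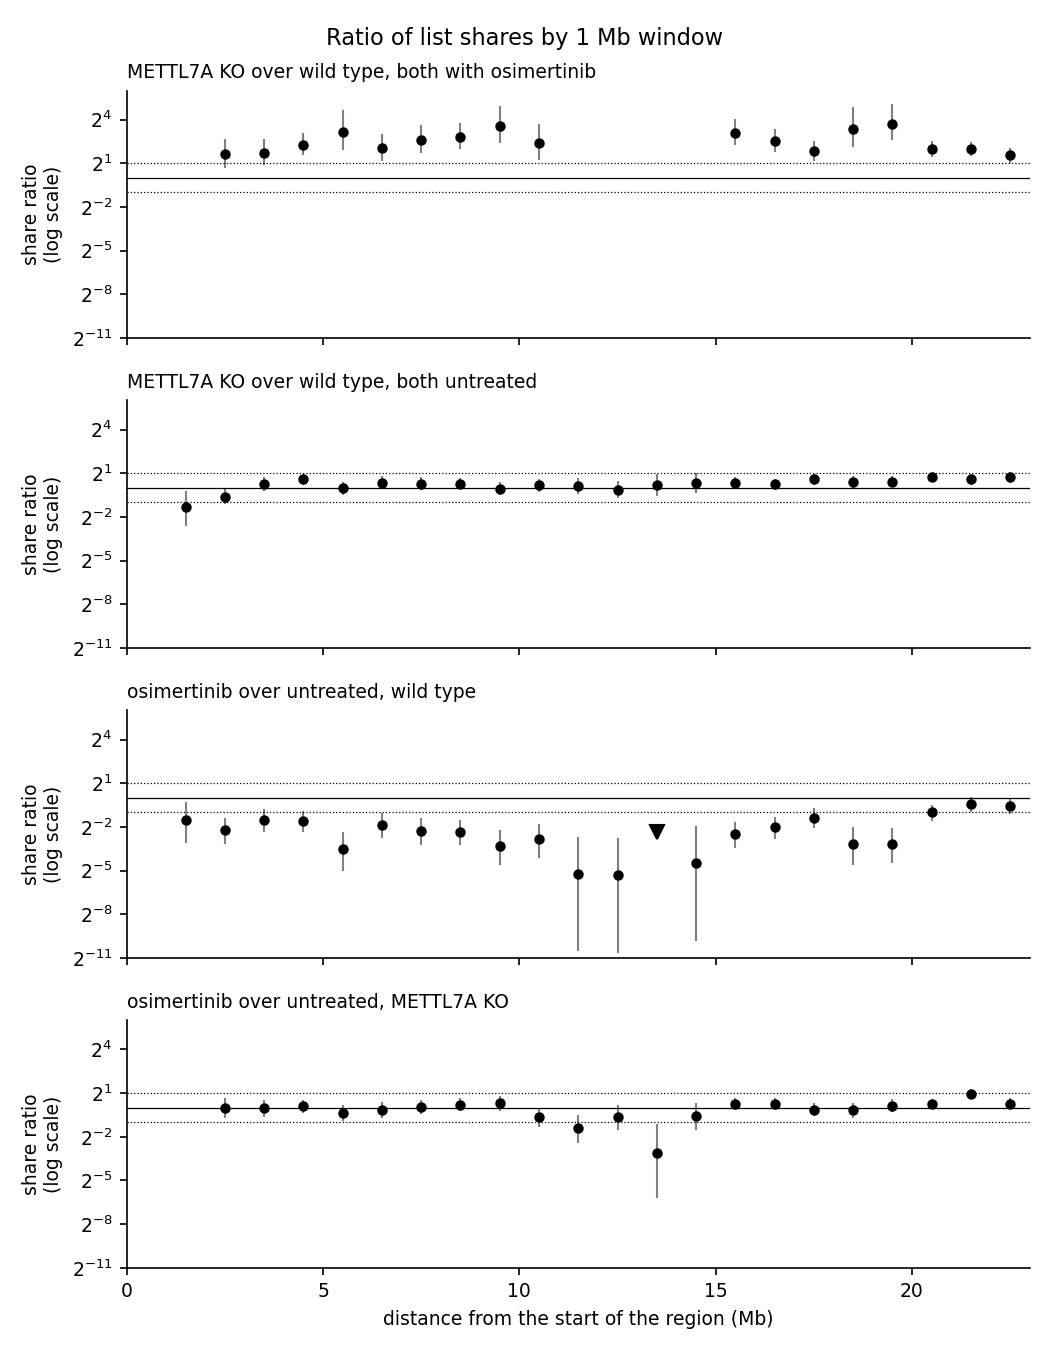
Ratio of list shares in each 1 Mb window with at least 20 intervals in either list, on a log scale, against the distance from 40 Mb in Mb; points are ratios, grey lines exact 95% intervals for counting error, the triangle the upper bound where treated wild type held 0 intervals, and dotted lines 2-fold. Knockout over wild type under osimertinib lay between 2.91 and 13.1, and treated over untreated wild type lay below 1 in all 22 windows.

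In both genotypes the weight of the region moved towards the chromosome end under osimertinib. Of the intervals of the region, those from 60 Mb onwards made up 29.9% in treated knockout (27.3 to 32.5) and 22.3% in untreated knockout (20.5 to 24.2). In wild type they made up 40.6% under osimertinib (35.3 to 46.1) and 17.1% without it (15.5 to 18.9). The trough at 51 to 55 Mb moved the other way, with 3.78% of the region's intervals in treated knockout (2.79 to 5) and 8.41% in untreated knockout (7.22 to 9.72), and 0.909% in treated wild type (0.188 to 2.63) and 9.63% in untreated wild type (8.36 to 11). Ratios of treated over untreated share were 1.4 (1.22 to 1.61) from 60 Mb and 0.472 (0.334 to 0.656) in the trough in the knockout, and 0.631 (0.513 to 0.773) and 0.0251 (0.00513 to 0.0745) in wild type. The middle stretches gave 0.983 at 42 to 51 Mb and 1.06 at 55 to 60 Mb in the knockout, and 0.203 and 0.21 in wild type. The longest stretch without an interval showed the same place: treated wild type had none from 52479901 to 54994000, a gap of 2514 kb in which treated knockout had 24 intervals, untreated knockout 95 and untreated wild type 98. The longest gap was 1147 kb in treated knockout, from 40995701 to 42143150, 472 kb in untreated knockout and 292 kb in untreated wild type.

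Spacing followed density. The median gap between neighbouring intervals of the region was 5950 bp in treated knockout (quartiles 2000 and 16600) and 4150 bp in untreated knockout (1550 and 9850), against 18850 bp in treated wild type (6200 and 68550) and 3350 bp in untreated wild type (1500 and 7600). In the rest of each list it was 12950, 10950, 17050 and 9800 bp in the same order. By median gap, intervals were thus closer together on distal chromosome 20 than elsewhere in 3 lists, and not in treated wild type. The longest gap of treated wild type was 2514100 bp in the region and 84815200 bp in the rest of the list. The median gap therefore does not show whether that list is denser here than elsewhere. By number it was denser here than on the rest of chromosome 20. It held 14.4 intervals per Mb in the region, against 125 intervals in all at 30 to 40 Mb and 108 in the first 30 Mb.

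Untreated wild type had the broadest intervals, and they were broader here than elsewhere. The median width in the region was 1200 bp in treated knockout (quartiles 850 and 1600) and 1750 bp in untreated knockout (1300 and 2350), against 1150 bp in treated wild type (900 and 1400) and 2950 bp in untreated wild type (2100 and 4700). For the rest of each list the medians were 1150, 1650, 1200 and 2550 bp. Within untreated wild type, intervals were wider towards the chromosome end, with medians of 1975 bp at 40 to 42 Mb, 2850 bp at 42 to 51 Mb, 2500 bp in the trough, 3150 bp at 55 to 60 Mb and 4100 bp from 60 Mb. In the other lists the medians ranged over the 5 stretches from 1000 to 1350 bp (treated knockout), 1550 to 1900 bp (untreated knockout) and 750 to 1200 bp (treated wild type), and from 60 Mb they were 1350 bp in treated knockout, 1900 bp in untreated knockout and 1150 bp in treated wild type. The widest intervals of treated knockout were 62030351 to 62035700 (5350 bp), 45266451 to 45271500 (5050 bp) and 62743751 to 62748750 (5000 bp). Untreated knockout had its widest at 49990801 to 50001000 (10200 bp), 61789901 to 61798850 (8950 bp) and 58328401 to 58336600 (8200 bp). In treated wild type they were 60271601 to 60274800 (3200 bp), 48764401 to 48767100 (2700 bp) and 42552051 to 42554650 (2600 bp). Untreated wild type reached 25300 bp at 62020601 to 62045900, 24750 bp at 58386851 to 58411600 and 24600 bp at 61002001 to 61026600. The first of these contained the widest interval of treated knockout.

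Intervals that share area, maximum and position of the maximum were taken as pieces of one called peak that the intersection of replicates had divided. Such pieces made up 37.9% of the region's intervals in treated knockout and 4.66% in untreated knockout, against 43% in treated wild type and 73.5% in untreated wild type. In the rest of each list they made up 32.8%, 3.09%, 50.1% and 46.5%. Counted as called peaks, the region held 985 in treated knockout and 1928 in untreated knockout, against 250 in treated wild type and 961 in untreated wild type. Called peaks whose pieces spanned over 10 kb numbered 4, 1, 7 and 296 in the same order. They made up 0.406%, 0.0519%, 2.8% and 30.8% of the region's called peaks, against 1.65%, 0.174%, 8.14% and 12.8% in the rest of each list. Spans over 50 kb numbered 24 in the region in untreated wild type and 0 in the other lists, while the rest of the lists held 2 in treated knockout and 0 in untreated knockout, against 10 in treated wild type and 39 in untreated wild type. The longest was 116.6 kb, from 55943651 to 56060200, in 13 pieces, and it overlapped 22 intervals of treated knockout, 18 of untreated knockout and 6 of treated wild type. The next were 61265351 to 61378200 (112.9 kb, 14 pieces), which overlapped 18, 20 and 11 intervals of the other lists, and 60229901 to 60322750 (92.8 kb, 14 pieces), which overlapped 16, 17 and 6. The 441 split peaks of untreated wild type spanned 36.2% of the region, and 76.7% of the region's intervals in treated knockout (74.3 to 79.1), 67% in untreated knockout (64.9 to 69.1) and 79.4% in treated wild type (74.6 to 83.6) overlapped one of these spans.

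The height of peaks relative to their own list separated the wild-type conditions more than the knockout conditions. The maximum of the called peak exceeded the list median for 45.1% of the region's intervals in treated knockout (42.3 to 47.9) and 50.9% in untreated knockout (48.6 to 53.1), against 17% in treated wild type (13.1 to 21.5) and 68.2% in untreated wild type (66 to 70.2). The rest of each list had 46.9%, 43.2%, 43.3% and 34.7%. With each called peak counted as 1, the region had 42.6%, 50.9%, 16.8% and 50.6%, against 40.2%, 43.1%, 33.3% and 25.4% for the rest. The median maximum of the region's intervals was 8 steps in treated knockout, where that of the rest was also 8. It was 6 in untreated knockout (rest 5), 10 in treated wild type (rest 11) and 14 in untreated wild type (rest 11). Steps differ in size between lists and are not compared across them. Within untreated wild type the median differed along the region, with 10 steps at 40 to 42 Mb, 14 at 42 to 51 Mb, 11 in the trough, 15 at 55 to 60 Mb and 17 from 60 Mb.

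**Figure D3:**
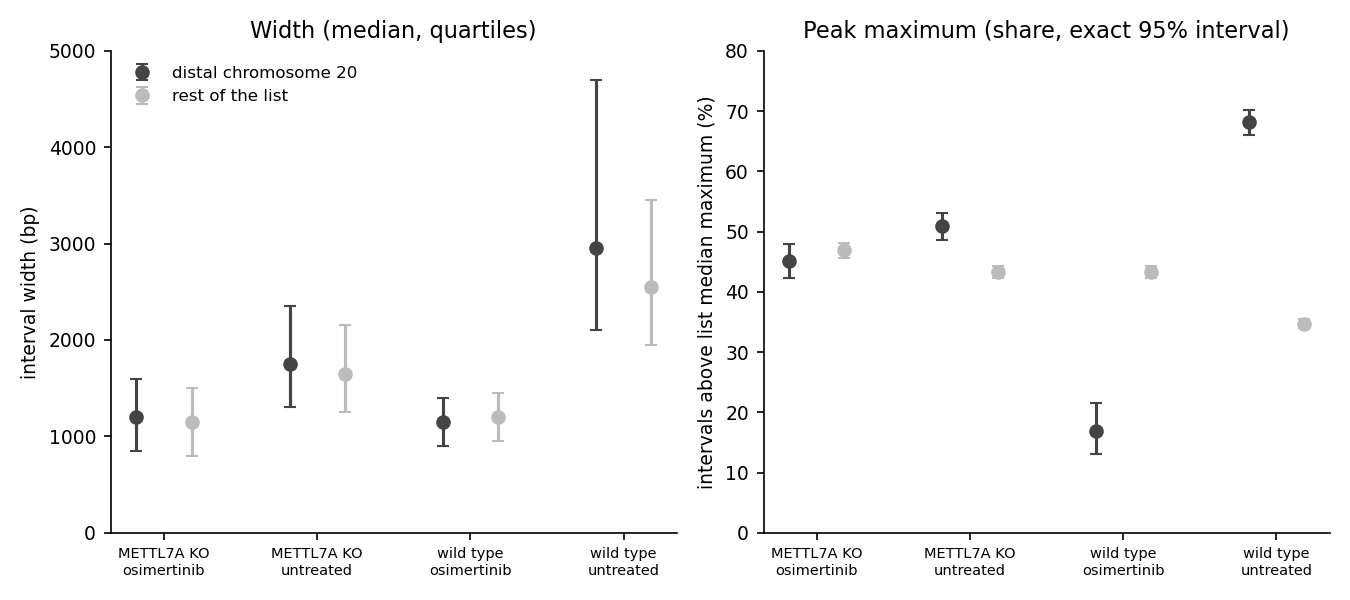
Left, interval width in bp (median with quartiles); right, share of intervals whose called peak exceeded the median maximum of its list, in percent with exact 95% intervals; dark points are distal chromosome 20 and pale points the rest of the list. Treated wild type had 17% of its distal intervals above the list median and untreated wild type 68.2%.

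No very high peak lay in the region. The highest maximum was 1.88 times the list median in treated knockout and 2.6 times in untreated knockout, against 1.45 times in treated wild type and 1.83 times in untreated wild type, whereas the rest of each list reached at least 192.5 times. The other parts of chromosome 20 were alike in this: the highest maximum was 1.25, 1.8, 1.55 and 1.5 times the list median at 30 to 40 Mb, and 2.62, 2.4, 1.27 and 1.42 times in the first 30 Mb, in the same order of lists. In treated knockout the top 3 intervals had 15 steps and lay at 59628551 to 59629650 and 59632201 to 59633400, which are pieces of one called peak, and at 55676651 to 55678450. Each was overlapped in untreated knockout. In untreated knockout they lay at 57575451 to 57577500 (13 steps), 57964801 to 57964900 and 60805651 to 60808300 (12 steps each), and each was overlapped in untreated wild type. The treated wild-type top interval, at 50123401 to 50124400 (16 steps), was overlapped in none of the other lists; the next were 62670751 to 62671850 and 42552051 to 42554650 (15 steps each), both overlapped in untreated wild type. The top 3 of untreated wild type were pieces of the 14-piece called peak from 61265351, at 22 steps. Its pieces all carry that maximum, and these are the first 3 by position. The maximum lay outside the interval itself for 49.8% of the region's intervals in treated knockout and 9.83% in untreated knockout. It did so for 70% in treated wild type and 59.1% in untreated wild type. The intervals named here therefore need not hold the maximum of their called peak.

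Intervals of the region were found again in other lists more often than those elsewhere in 6 of 8 pairings. The exceptions were the pairings that searched treated wild type, which covered 1.71% of the region. Treated knockout covered 6.98% of it, untreated knockout 17.1% and untreated wild type 33.5%. How far the coverage of the searched list accounts for these shares was not tested. An interval had a counterpart where another list overlapped it by at least 1 bp. Of the region's treated knockout intervals, 10.3% (8.67 to 12.1) had a counterpart in treated wild type, against 14% for the rest of that list and 13.4% for the whole list. Searched the other way, 38.2% of the region's treated wild-type intervals (32.9 to 43.7) had one in treated knockout, against 9.51% for the rest and 10.5% for the whole list. Among the untreated lists, 74.5% (72.5 to 76.4) of the knockout intervals had a counterpart in wild type, against 49.8% for the rest and 53.7% for the whole list, and 55.9% (53.7 to 58.1) of the wild-type intervals had one in the knockout, against 32.1% and 35.1%.

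Most intervals of treated wild type lay on positions that untreated wild type also had. The share was 85.2% (80.8 to 88.8), against 26.7% for the rest of the list and 28.7% for the whole list, in a region of which the untreated wild-type intervals covered 33.5%. In the other direction 11.4% (10 to 12.9) of the untreated intervals had a treated counterpart, against 15.4% for the rest and 14.8% for the whole list. In the knockout 54.5% (51.7 to 57.3) of the treated intervals had an untreated counterpart, against 41.5% for the rest and 43.7% for the whole list, and 31.6% (29.6 to 33.7) of the untreated intervals had a treated one, against 21.8% and 23.4%. The terminal 60 to 63 Mb were matched most: there 96.3% of treated wild-type intervals had an untreated counterpart (91.5 to 98.8) and 61.7% of treated knockout intervals did (56.6 to 66.7). The untreated lists also covered most ground there. In the windows at 60 to 61, 61 to 62 and 62 to 63 Mb they covered 630.5, 616.9 and 551.8 kb in wild type. In the knockout they covered 343.25, 299.25 and 324.3 kb. How far this coverage accounts for the overlap was not tested.

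**Figure D4:**
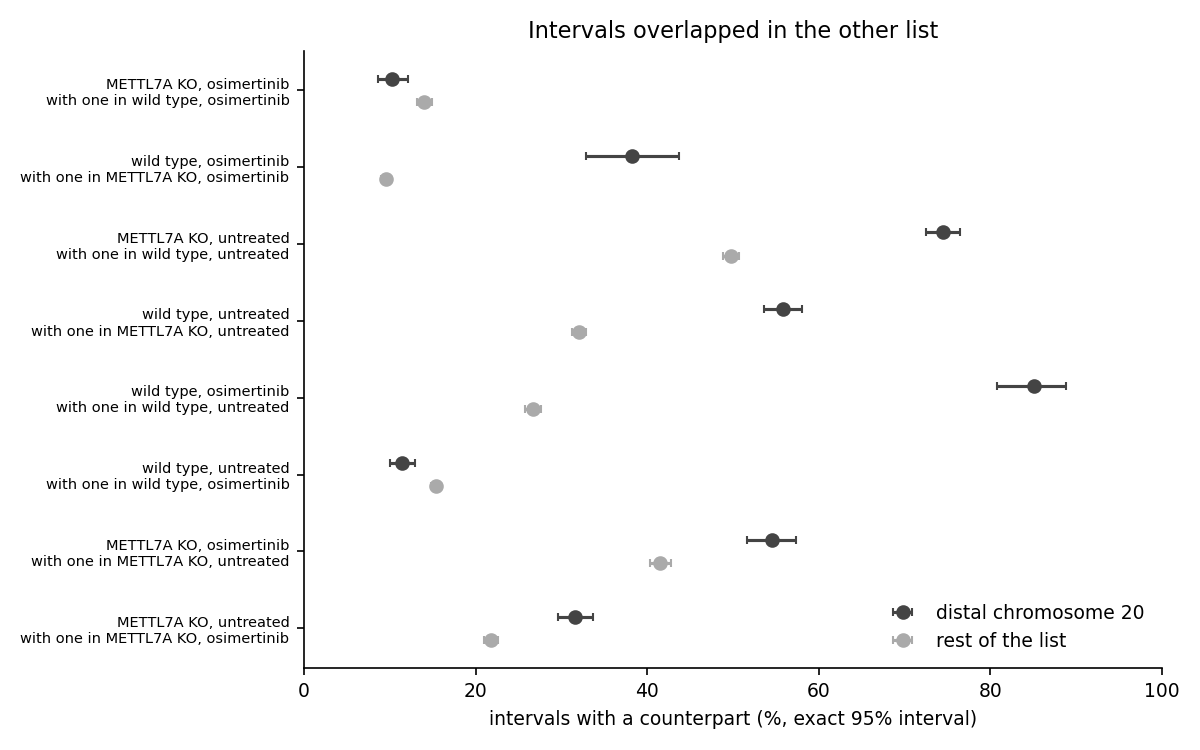
Share of intervals overlapped by at least 1 bp in the other list, in percent with exact 95% intervals for counting error; each row names the list whose intervals were counted and the list searched, dark points are distal chromosome 20 and pale points the rest of the list. For treated wild type searched in untreated wild type the shares were 85.2% and 26.7%.

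Overlap depends on width, and wide intervals were matched more. Untreated wild-type intervals of the region with a treated counterpart had a median width of 5850 bp and those without one 2800 bp; for untreated knockout the widths were 2050 and 1650 bp. Within width classes the contrast with the rest of the list was kept for treated wild type. These classes do not adjust for the ground the other list covers, which was 33.5% of the region for untreated wild type. How far that coverage accounts for the contrast was not tested. Of its intervals of up to 1000 bp, 80% (71.5 to 86.9) had an untreated counterpart, against 23.3% for the rest, and of those of 1000 to 1500 bp 84.2% (77.4 to 89.6) did, against 24.9%. In untreated wild type the share with a treated counterpart was below that of the rest in each of 5 width classes, at 3.37% (2.04 to 5.22) and 13.2% for 2000 to 3000 bp and at 19.7% (17.2 to 22.4) and 23% above 3000 bp. Intervals without a counterpart were often near one: the median distance to the nearest interval of the other list was 1.35 kb for treated wild type searched in untreated wild type and 1.7 kb for treated searched in untreated knockout, but 33.1 kb for untreated searched in treated wild type. Such distances depend on how dense the searched list is. Its median gap in the region was 3350 bp in untreated wild type, 4150 bp in untreated knockout and 18850 bp in treated wild type. Requiring an overlap of 50% of both intervals gave much lower shares. Of the treated wild-type intervals 3.94% then had an untreated counterpart, and of the treated knockout intervals 16.7% did.

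Merging the intervals of the 4 lists where they overlap or touch gave 2541 positions on distal chromosome 20. All 4 lists held 147 of them, or 5.79% (4.91 to 6.76), against 1.98% (1.82 to 2.16) elsewhere and 2.31% over the genome. This share was 8.76% when positions up to 1000 bp apart were merged and 2.25% among called peaks at or above the median of their list. A merged position can chain intervals that do not all overlap each other. Counted by interval, 7.09% in treated knockout were overlapped in all 3 other lists (rest 7.12%), and 5.17% in untreated knockout (rest 4.36%). In treated wild type 28.2% were (rest 4.95%), and in untreated wild type 7.34% (rest 3.68%). All lists but treated wild type held 366 positions, or 14.4% (13.1 to 15.8), against 4.43% (4.18 to 4.68) elsewhere and 5.3% over the genome. A further 460 positions, 18.1% (16.6 to 19.7), were held by the untreated lists alone, against 7.38% elsewhere. Treated wild type alone held 30 positions, 1.18% (0.798 to 1.68), where elsewhere it alone held 23.3% (22.8 to 23.8). Positions held by a single list made up 50.6% (48.7 to 52.6) of the region and 74.7% (74.2 to 75.2) of the rest. Merged positions grow with the number of lists that hold them, from a median of 1750 bp in 1 list to 9400 bp in 4.

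**Figure D5:**
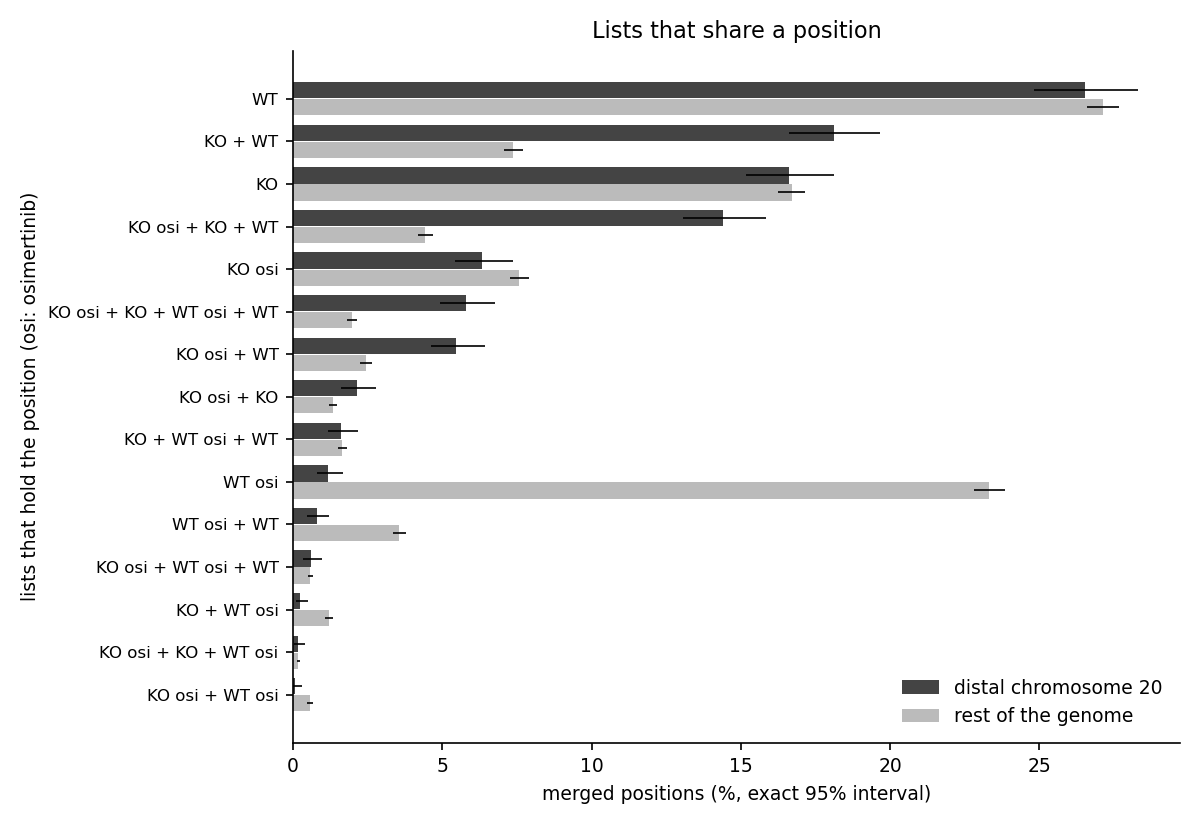
Share of merged positions held by each combination of lists, in percent with exact 95% intervals for counting error; dark bars are the 2541 positions of distal chromosome 20 and pale bars those of the rest of the genome. Positions missing in treated wild type alone made up 14.4% of distal chromosome 20, and positions held by treated wild type alone made up 1.18%.

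The positions held by all 4 lists were most numerous near the telomere. Each needs a treated wild-type interval, and 40.6% of that list's intervals in the region lay from 60 Mb onwards. How far this accounts for their placement was not tested. Of the 147, the windows at 60 to 61, 61 to 62 and 62 to 63 Mb held 19, 27 and 23, and the 6 windows from 40 to 42 Mb and from 51 to 55 Mb held 0. Positions missing in treated wild type alone were spread more evenly, with 34, 23 and 23 in the same terminal windows and 24 to 29 in 4 of the 5 windows from 55 to 60 Mb. The longest positions held by all 4 lists were 62829701 to 62859850 (30150 bp), 60998251 to 61026600 (28350 bp), 55966501 to 55993700 (27200 bp), 62020601 to 62046750 (26150 bp) and 61048801 to 61072500 (23700 bp). The first of these was the nearest of the 5 to the end of the chromosome and contained 5 intervals of treated knockout, 6 of untreated knockout, 2 of treated wild type and 2 of untreated wild type. The longest positions missing in treated wild type alone were 58294801 to 58323800 (29000 bp), 56146351 to 56173200 (26850 bp), 58385151 to 58411600 (26450 bp), 50181401 to 50203550 (22150 bp) and 61789901 to 61809100 (19200 bp). At 58294801 to 58323800 treated knockout had 5 intervals, untreated knockout 4 and untreated wild type 2.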

How the data were processed

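TOP2B CUT&RUN of PC9 cells was available as 4 peak lists, 1 per combination of genotype and treatment, from 8 samples; the 8 H2A samples were not analysed here. The submitters' processing notes name Trimmomatic, FastQC, Bowtie2 2.4.2, SAMtools 1.16, SEACR, deepTools 3.5.1, bedtools 2.30 and GRCh37; the labels do not give the peak caller's mode, its control or the scaling of the coverage. The lists have no header. The area of a called peak is a deposited score, and its maximum is a deposited signal, the highest coverage in the peak; both are the authors' values for the called peak, not for the interval. Starts and ends in the region are multiples of 50 bp as deposited, counted from 0; printed starts are 1 higher, counted from 1.

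Each interval was assigned by its midpoint to a 1 Mb window. Windows that held 20 or more intervals in 1 or both lists were examined, and share ratios with 0.5 added to each count were judged at 2-fold. For each comparison the 3 windows with the highest and the 3 with the lowest ratio are named, and in each list the 3 highest and 3 widest intervals; the longest gaps, the longest called peaks and the stretches of the region were chosen after their values were seen. Planned gene names were not used, because the annotation at hand is of another build. The members, rules and stretches were chosen with earlier results of these lists known. The functions were tested on simulated data. Python 3.11.15, pandas 2.3.3, NumPy 2.4.6 and SciPy 1.17.1 were used. Alternatives were called peaks, summed length, a stricter maximum, a minimum width, other limits of the region and stricter overlap.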

Additional observations from a re-analysis of the deposited data

Results flagged for a closer look

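The share of distal chromosome 20 under osimertinib over untreated was 1.05 (95% interval for counting error 0.976 to 1.13) in METTL7A knockout and 0.266 (0.236 to 0.299) in wild type, and this difference between the genotypes was not tested, since each condition has 1 list. The knockout ratio was not held to one side of 1: it was 0.947 without 60 Mb to the end. With 0.5 added to each count, it lay above 1 in 11 of the 21 windows examined in both comparisons. Of these, 42 to 43 Mb gave 0.994 without the addition. In wild type the ratio lay below 1 in all 21. The knockout ratio exceeded the wild-type ratio in each of the 21 windows. The stretch from 40 to 42 Mb, which is not among them, went the other way. Its ratio was 0.128 (0.00302 to 0.854) for the knockout, on 1 treated and 13 untreated intervals. For wild type it was 0.413 (0.199 to 0.792), on 12 and 46. The region was selected on how its share differs between the lists, so the count of windows is a description.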

How the results depend on the processing

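No paired analysis was possible because each condition has 1 list made from both replicates, and for the same reason no replicate could be left out. The ratio of shares for treated knockout over treated wild type was 4.85, and 7.26 with called peaks at or above the list median. For untreated knockout over untreated wild type it was 1.23, and 1.71 by called peaks, 1.07 by summed length and 0.885 with the stricter maximum. Treated over untreated wild type gave 0.266, and 0.412, 0.205 and 0.125 under the same 3 settings. Leaving out 60 Mb to the end, chosen after seeing the data, gave 5.73, 1.15, 0.191 and, for treated over untreated knockout, 0.947 in place of 1.05. By called peaks 7 windows, not 0, were at least 2-fold higher in untreated knockout than in untreated wild type, and with a minimum of 10 intervals 2 windows, not 1, were lower. The share over all windows is not available under either setting. With 50% of both intervals overlapping, shares with a counterpart were 4.19% (treated knockout in treated wild type), 15.8% (the reverse), 17.3% (untreated knockout in untreated wild type), 17.4% (the reverse), 3.94% (treated in untreated wild type), 0.662% (the reverse), 16.7% (treated in untreated knockout) and 10.5% (the reverse). With the stricter maximum they were 4.99%, 27.1%, 70.4%, 56%, 82.9%, 5.57%, 50.1% and 24.5%. Positions held by all 4 lists made up 8.76% when merged up to 1000 bp apart and 2.25% with the stricter maximum. The median width in untreated wild type was 3150 bp with the stricter maximum. The cause of these changes was not tested. Under the settings listed in the processing account, 36 further values stayed within the counting interval of the value reported or within 1.5 times the count.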
